A study of Mus musculus with 59 samples.

Results

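Potassium channel genes were examined in 59 single mouse cells from a study of turning astrocytes into neurons with chemicals in the living brain. The members are all genes in the deposited table whose symbol starts with Kcn, which gave 81 of 20689 genes (0.392%), and 49 members reached an FPKM of at least 1 in at least 6 cells, most of which are described by name. FPKM scales the sequenced fragments of a gene by its exon length and by the fragments of the whole cell, so levels of different genes can be set side by side per length. All 59 cells carry the label chemical-induced neurons and an age label of 12 weeks, and their content was drawn into a patch pipette after the membrane had been ruptured. The labels name no animal, strain, compound or control group, so the cells were treated as 1 sample, no test between groups was possible and no p-value is given. Cells are named below by the number in their label. Detected means an FPKM of 1 or higher in that cell. Each interval given with a share of cells is an exact 95% Clopper-Pearson interval and reflects only how many cells were counted.

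Potassium channels let potassium ions leave or enter the cell and so set the resting potential, end the action potential and limit how fast a neuron can fire. Voltage-gated alpha subunits (Kcna, Kcnb, Kcnc, Kcnd, Kcnq and Kcnh) assemble as tetramers, inward rectifiers (Kcnj) and leak channels with paired pore domains (Kcnk) hold the membrane near its resting potential, and calcium- or sodium-activated channels (Kcnm, Kcnn, Kcnt) link potassium flow to other ions. Not every Kcn gene encodes a pore: Kcnab, Kcnip, Kcnmb and Kcne genes encode accessory subunits, Kcnf, Kcng, Kcns and Kcnv genes encode silent subunits that work only together with Kcnb subunits, and Kcnq1ot1 is a long non-coding RNA. In the brain, most of these channels are neuronal, while Kcnj10 is the main inward rectifier of astrocytes and oligodendrocytes.

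The pore of a potassium channel is lined by a short selectivity filter, and the stretches that code for it show what the members have in common. The coding sequences of the longest coding transcript of each gene (GENCODE M21, build GRCm38) were searched in frame on the coding strand for ACNNNNGGNTANGGN, the 15-base pattern that the genetic code gives for the filter's core of threonine, any residue, glycine, tyrosine and glycine, where N is any base. The pattern occurred in 47 of 79 members searched, in 27 of the 48 searched members that were detected in at least 6 cells, and in 114 of 21562 coding genes (0.529%), and no member had it at 2 places. The stretches of 7 members that the results below turn on are given 5′ to 3′ with the match in capitals and 15 bases on either side.
Kcna1: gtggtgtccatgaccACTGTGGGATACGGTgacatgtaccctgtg
Kcna2: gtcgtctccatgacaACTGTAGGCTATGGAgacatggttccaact
Kcna6: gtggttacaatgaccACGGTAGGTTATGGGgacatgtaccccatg
Kcnc1: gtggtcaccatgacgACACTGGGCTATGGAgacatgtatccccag
Kcnd2: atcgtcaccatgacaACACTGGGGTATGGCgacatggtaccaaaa
Kcnma1: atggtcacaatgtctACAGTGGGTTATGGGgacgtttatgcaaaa
Kcnk1: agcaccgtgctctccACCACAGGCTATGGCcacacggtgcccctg
On GRCm38 these coding stretches lie at chr6:126642213-126642257 (minus strand, Kcna1), chr3:107105209-107105253 (plus, Kcna2), chr6:126738632-126738676 (minus, Kcna6), chr7:46427958-46428002 (plus, Kcnc1) and chr14:23528398-23528442 (minus, Kcnma1). The stretches of Kcnd2 (chr6:21217391-21714156, plus strand) and Kcnk1 (chr8:125995793-126025034, plus) are split over exons, so these coordinates include an intron. Over the 45 bases Kcna1 matched Kcna6 at 35 positions (77.8%), Kcnc1 at 33 (73.3%), Kcna2 at 31 (68.9%) and Kcnk1 at 19 (42.2%). Kcna2 matched Kcnd2 at 35 (77.8%), so likeness of these bases did not follow the prefixes, and the least alike of the pairs was Kcnma1 with Kcnk1 at 17 (37.8%). The pattern was not found in the accessory genes Kcnab, Kcnip, Kcnmb and Kcne, nor in Kcnk2, Kcnk13, Kcnt1, Kcnn1, Kcnn2, Kcnn3 or the Kcnh genes, which says only that these letters are absent from that transcript.

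Detection of the family as a whole was close to that of all genes. Of the 81 members, 49 (60.5%) were detected in at least 6 cells, against 54.4% of all genes, and 31 (38.3%) in at least 12 cells, against 38.9%. Only 4 members (4.94%) were detected in at least 30 cells, against 11.7% of all genes. These were Kcna1, a low-threshold channel of axons, in 40 cells, Kcnq3, a subunit of the M-current that restrains repetitive firing, in 33, and Kcnd2, the main subunit of the dendritic A-type current, and Kcnk1, a leak channel, in 30 cells each. The median member was detected in 8 cells (13.6%) and the median gene in 7 (11.9%), and every member was detected in at least 1 cell. The 866 detections made up 18.1% of the 4779 values of members in cells, against 20.3% of all gene values. Most detections were not single fragments: 736 (85.0%) rested on at least 10 fragments and 9 (1.04%) on 1, with fragments recovered from FPKM, exon length and depth. At the edge of the threshold, Kcne2, Kcng4, Kcnh5 and Kcnn1 lay just inside with 6 cells each, and Kcne1l, Kcnh3, Kcnh4 and Kcnh6 just outside with 5 cells each.

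**Figure D1:**
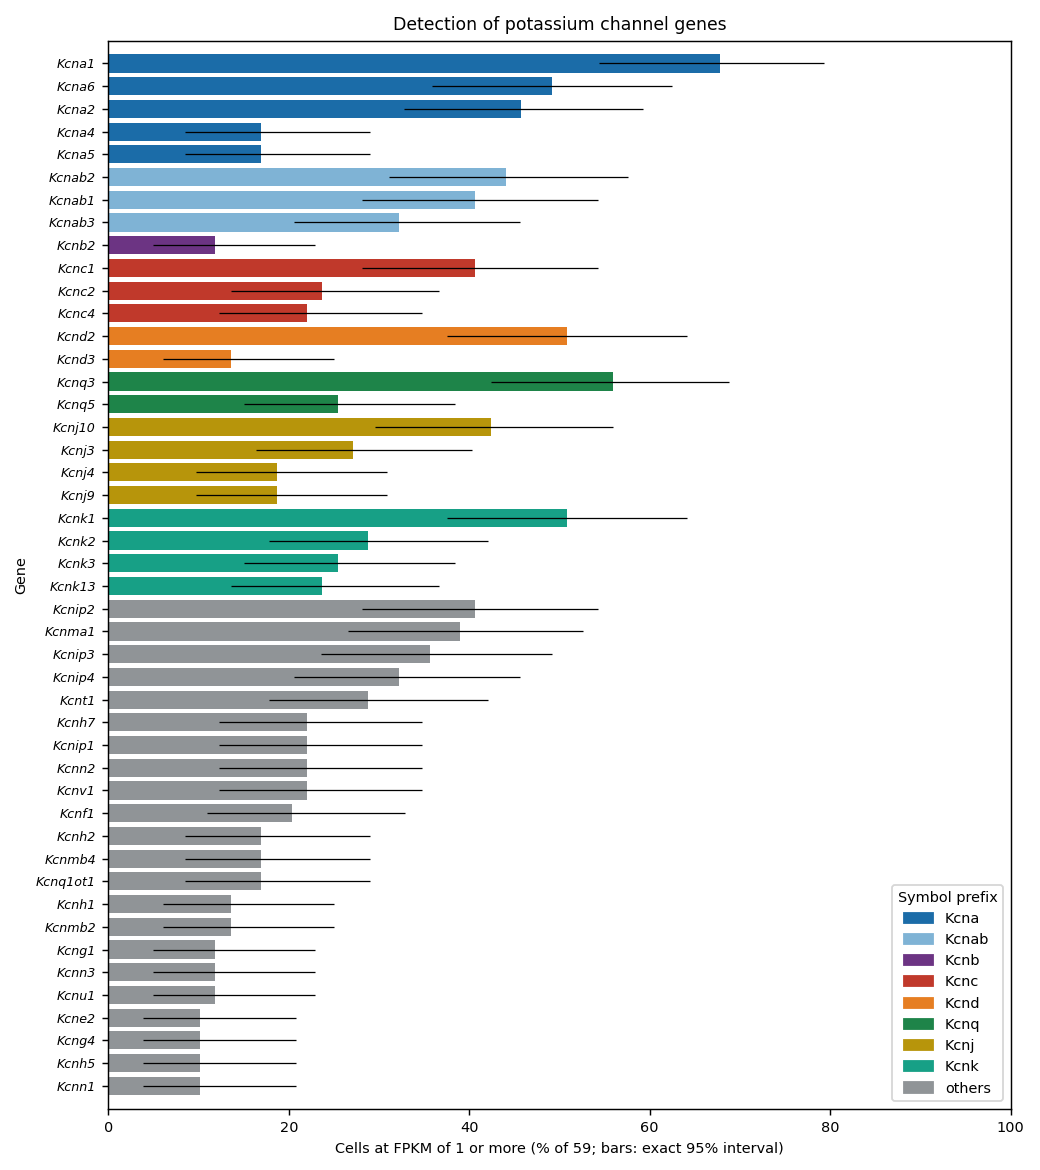
Share of the 59 cells (%, horizontal axis) in which potassium channel genes reached an FPKM of at least 1, coloured by symbol prefix, with exact 95% intervals as lines. Kcna1 leads with 67.8%, Kcnc1 at 40.7% lies above Kcnc4 at 22.0%, and the interval of Kcnd2 lies above that of Kcnd3 and the interval of Kcnq3 above that of Kcnq5.

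The cells varied widely in depth and carried markers of several cell types. The number of genes detected ranged from 475 to 10310 per cell (median 3984), and the fragments recovered from 29043 to 2950400 (median 912996). All 14 pan-neuronal markers were detected in at least 30 cells, but so were 8 of 9 oligodendrocyte, 6 of 10 microglia and 5 of 11 astrocyte markers, while 0 of 7 endothelial and mural markers were. Summed FPKM ranged over cells from 0 to 2980 for the neuronal list, from 7.11 to 28938 for the oligodendrocyte list, from 0 to 32445 for the microglia list and from 0 to 3887 for the astrocyte list, and no marker was at 0 in all cells. The label of neurons was thus met by neuronal markers beside myelin and microglia markers, and the part of other cells' RNA in the channel values was not tested.

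Among the Kcna genes, which encode low-threshold voltage-gated channels of axons and nerve terminals, Kcna1 was detected in 40 cells (67.8%, interval 54.4 to 79.4%), Kcna6 in 29 (49.2%) and Kcna2 in 27 (45.8%). Kcna1 ran from 0 to 106 FPKM with a median of 4.49, and reached 10 in 21 cells, the highest being cells 57, 40 and 7 with 106, 91.2 and 80.0. Kcna2 ran from 0 to 59.0 with a median of 0.873, and its highest value, in cell 54, was followed by 21.2 and 20.1. Kcna6 ran from 0 to 308 with a median of 0.790, and its highest value lay in cell 1, where only 92393 fragments were recovered, with 53.0 next. So high Kcna1 was shared by many cells, while the top of Kcna6 belonged to a single shallow cell. Kcna4, an A-type channel, and Kcna5, a delayed rectifier, were each detected in 10 cells, with highest values of 34.7 in cell 43 and 279 in cell 20, which was the shallowest of all with 29043 fragments. Of the 53 cells with any Kcna gene, the highest by FPKM was Kcna1 in 26, Kcna6 in 10, and Kcna2 and Kcna5 in 7 each. The genes of 3 of these members lie next to each other on chromosome 6, Kcna5 at 126532551-126535412, Kcna1 at 126640397-126646384 and Kcna6 at 126708329-126740674, all on the minus strand. Kcna1 and Kcna2, which assemble in the same axonal channels, were found together in 20 cells, which is 50.0% of the Kcna1 cells and 74.1% of the Kcna2 cells. The product of their 2 shares gives 18.3 cells, and the rho of their levels was 0.194. All of Kcna1, Kcna2 and Kcna6 were found in 15 cells.

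Some Kcna values share sequence that could draw the same fragments. Over whole transcripts, untranslated parts included, Kcna5 and Kcna6 hold an identical stretch of 91 bases, while Kcna1 and Kcna6 share 31 bases at most. The stretch of 91 bases was the longest between any members compared within a prefix. Kcna5 and Kcna6 were detected together in 7 of the 10 Kcna5 cells, while Kcna6 was detected in 49.2% of all cells. The highest Kcna5 cells, 20 and 52 with 279 and 42.1 FPKM, had Kcna6 at 0. The highest Kcna6 cell, cell 1 with 308 FPKM, had Kcna5 at 0. The sources used here do not say how multi-mapped fragments were counted, and sharing of fragments was not tested. Exons of Kcna6 also overlap those of the antisense gene Gm26673 over 39.6% of their length, and Gm26673 was detected in 4 cells.

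The 3 Kcnab genes encode the cytoplasmic beta subunits that bind Kcna channels and change their inactivation and transport. Kcnab2 was detected in 26 cells (44.1%), Kcnab1 in 24 (40.7%) and Kcnab3 in 19 (32.2%), and their intervals overlap. Kcnab2 and Kcnab1 reached similar tops, 76.4 in cell 35 and 71.0 in cell 3. Kcnab3 had higher tops, 320 in cell 12, 180 and 153, although its median over the cells where it was detected was only 6.33. Of the 39 cells with any beta subunit, the highest was Kcnab3 in 15, Kcnab1 in 13 and Kcnab2 in 11, so none of them led. A beta subunit accompanied Kcna1 in 31 of its 40 cells. Kcnab2 accompanied Kcna1 in 21 cells (52.5% of the Kcna1 cells, 80.8% of the Kcnab2 cells) and Kcna2 in 19 (70.4% of the Kcna2 cells, 73.1% of the Kcnab2 cells). The products of their shares of cells give 17.6 and 11.9 cells. All 3 beta subunits occurred together in 8 cells.

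**Figure D2:**
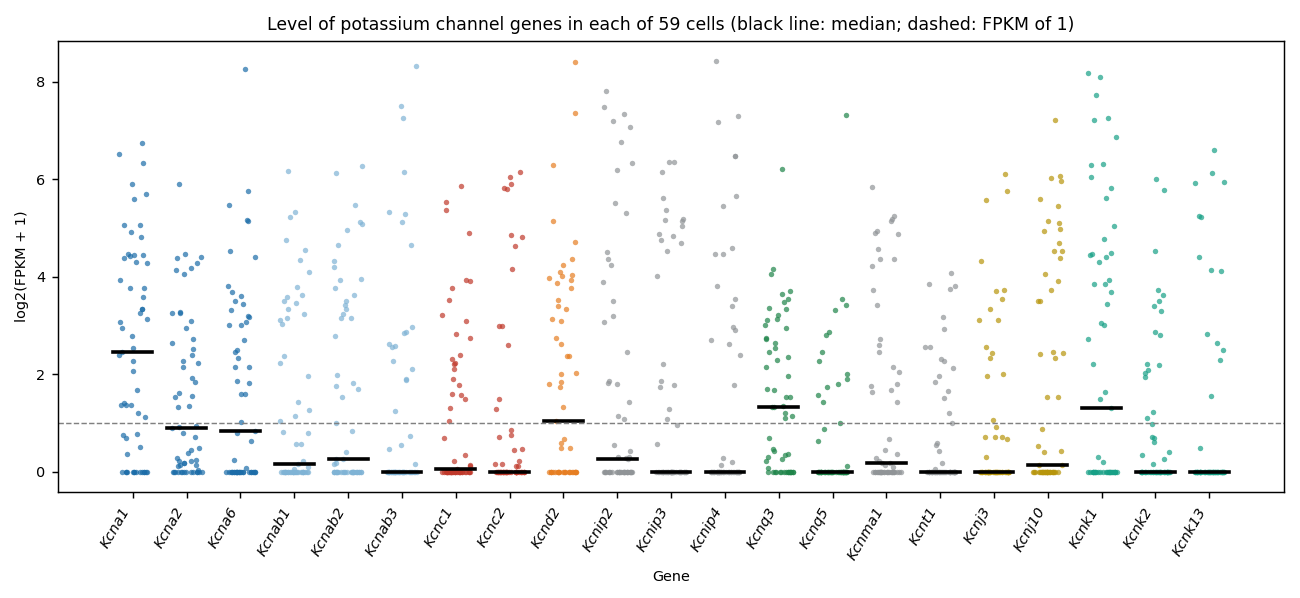
Level of potassium channel genes in each of the 59 cells, as log2(FPKM + 1) on the vertical axis, with 1 point per cell, the median as a black line and an FPKM of 1 as a dashed line. The medians of Kcna1, Kcnd2, Kcnq3 and Kcnk1 lie above the dashed line, the others below it, and single cells stand far above the rest for Kcna6 and Kcnq5.

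The Kcnb genes encode high-threshold delayed rectifiers of the soma and proximal dendrites. Kcnb2 was detected in 7 cells (11.9%), with 5.81 FPKM at most, and had an FPKM above 0 in 19. Among the silent subunits, at least 1 of 8 was detected in 28 cells. Kcnv1 was detected in 13 cells (highest 40.5), Kcnf1 in 12 (highest 23.6), Kcng1 in 7 and Kcng4 in 6. Kcng1 reached 111 in cell 12 and 11.5 in the next cell.

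The Kcnc genes encode high-threshold channels that open and close fast and allow sustained firing at high rates, as in parvalbumin interneurons. Kcnc1 was detected in 24 cells (40.7%, interval 28.1 to 54.3%), Kcnc2 in 14 (23.7%) and Kcnc4 in 13 (22.0%). Kcnc1 ran from 0 to 56.9 FPKM, with 45.0 and 40.1 next, and its highest cells were 12, 61, 13, 11 and 9. Kcnc2 was detected less widely but high where present, with a median of 25.4 over its 14 cells and 69.8 in cell 39. The median over detected cells was 4.99 for Kcnc1 and 12.0 for Kcnc4. Kcnc1 was the highest Kcnc gene in 13 of 35 cells, Kcnc2 in 10 and Kcnc4 in 6, which shows no single leader. Parvalbumin (Pvalb) was found in 18 of the 24 Kcnc1 cells (75.0%, and 60.0% of the Pvalb cells), and in 13 of the 14 Kcnc2 cells. Pvalb was detected in 30 cells in all, and the product of its share with that of Kcnc1 gives 12.2 cells. Snap25, a synaptic protein of neurons, was detected in all 24 Kcnc1 cells, against 54 of all 59 cells.

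The Kcnd genes encode the pore of the fast-inactivating A-type current, and the 4 Kcnip genes encode the calcium-binding proteins that bring Kcnd channels to the membrane. Kcnd2 was detected in 30 cells (50.8%, interval 37.5 to 64.1%), Kcnd3 in 8 and Kcnd1 in 4, and Kcnd2 was the highest of them in 28 of 34 cells. Kcnd2 ran from 0 to 341 FPKM with a median of 1.06, and its top values were 341 in cell 20, 163 in cell 3 and 77.6 in cell 54. In the shallow cell 20, 1 fragment on 1 kb of exon is worth 34.4 FPKM. Kcnip2 was detected in 24 cells (40.7%), Kcnip3 in 21 (35.6%), Kcnip4 in 19 (32.2%) and Kcnip1 in 13 (22.0%). Their highest values were 342 for Kcnip4 in cell 11, 225 for Kcnip2 in cell 3, 99.3 for Kcnip1 in cell 7 and 81.5 for Kcnip3 in cell 45. Kcnip2 reached 100 FPKM in 6 cells, as many as Kcnk1, and was the highest of all members in 9 cells, more than any other member. At least 1 Kcnip gene was detected in 39 cells, in 23 of the 30 Kcnd2 cells, and in 13 cells without any Kcnd gene. Kcnd2 was found together with Kcnip2 in 15 cells (50.0% of the Kcnd2 cells, 62.5% of the Kcnip2 cells), with Kcnip4 in 13 (43.3 and 68.4%) and with Dpp6, a membrane partner of Kcnd channels, in 14 (46.7 and 66.7%). The products of their shares of cells give 12.2, 9.66 and 10.7 cells. Kcnip3 also serves as a calcium-dependent transcriptional repressor, so its presence alone does not mark a channel complex.

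Kcnq subunits carry the M-current, a slow current closed by acetylcholine acting on muscarinic receptors. Kcnq3 was detected in 33 cells (55.9%, interval 42.4 to 68.8%), and Kcnq5 in 15 (25.4%). Kcnq3 ran from 0 to 73.0 FPKM with a median just above the detection threshold, and below its top in cell 41 came 16.9 and 15.8. Kcnq5 reached 159 in cell 44 and 10.7 in the next cell. Both thus had a single cell far above the others. Kcnq3 was the highest Kcnq gene in 27 of 42 cells. Ankyrin-G (Ank3), which anchors Kcnq channels at the axon initial segment, was found in 25 of the 33 Kcnq3 cells and in 41 cells in all.

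Of 12 inward rectifier genes (Kcnj), 4 passed the threshold. Kcnj10, which takes up potassium around active neurons in glia, was found in 25 cells (42.4%, interval 29.6 to 55.9%), where its median was 22.0 FPKM. Its highest cell was 39 with 147, followed by 66.4 in cell 19 and 64.6 in cell 14, and 19 cells reached 10. Kcnj3, the common subunit of the channels opened by G proteins, was detected in 16 cells with 68.2 at most, and its partner Kcnj9 in 11 with 112 in cell 44, while Kcnj6 was detected in 2 cells. Kcnj3 and Kcnj9 were found together in 3 cells, 18.8% of the Kcnj3 cells and 27.3% of the Kcnj9 cells, where the product of their 2 shares of cells gives 2.98. Kcnj4, a strong inward rectifier of forebrain neurons, was detected in 11 cells with 30.5 at most, and the related Kcnj2, Kcnj12 and Kcnj14 in 2 to 4 cells each. Kcnj10 was the highest Kcnj gene in 17 of 39 cells. Its glial partner Kcnj16 was detected in 4 cells, 3 of them with Kcnj10. Exons of Kcnj3 overlap those of Gm26794 on the other strand over 31.1% of their length.

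Kcnj10 was detected beside the myelin gene Mbp in 24 of its 25 cells, where Mbp itself was in 55 of 59, and beside the astrocyte water channel Aqp4 in 8 (32.0% of the Kcnj10 cells, 61.5% of the Aqp4 cells). The products of shares give 23.3 cells with Mbp and 5.51 with Aqp4. The highest cell of Kcnj10, 39, had the lowest mean of the oligodendrocyte list of all 59 cells. Cells 19, 52 and 10, also among its 5 highest, ranked 14, 17 and 7 by that list. Snap25 was found in 23 of the 25 Kcnj10 cells, and in 54 of all 59 cells. High Kcnj10 therefore occurred both in cells with strong myelin markers and in a cell with hardly any.

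Among the 10 leak channel genes (Kcnk), 4 passed the threshold. Kcnk1 was found in 30 cells (50.8%, interval 37.5 to 64.1%), and its median was 1.46 FPKM over all cells and 20.9 over those 30. Its highest cells were 7, 13 and 12 with 288, 274 and 210, and 6 cells reached 100. Kcnk1 held 9.65% of the FPKM summed over all members and cells, against 4.58% for Kcna1. Kcnk2, a channel opened by stretch and lipids, was detected in 17 cells with 62.8 at most, and Kcnk3, an acid-sensitive leak channel, in 15 with 33.0 at most. Kcnk13, known from microglia, was detected in 14 cells, where its median was 18.4, and reached 95.5, 68.8 and 60.8 in cells 10, 55 and 14. The highest Kcnk gene was Kcnk1 in 19 of 39 cells, Kcnk13 in 10, Kcnk3 in 5 and Kcnk2 in 3. Kcnk1 accompanied Kcnk2 in 14 cells, 82.4% of the Kcnk2 cells and 46.7% of the Kcnk1 cells, where the product of their shares gives 8.64. Kcnk13 was found with the complement gene C1qb of microglia in 13 of its 14 cells (C1qb was in 42 cells) and with Mbp in all 14 (Mbp was in 55 cells).

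Among the channels gated by calcium or sodium, Kcnma1, the large-conductance channel that opens on both voltage and calcium, led with 23 cells (39.0%, interval 26.5 to 52.6%). Kcnma1 ran from 0 to 56.0 FPKM in cell 12, with 37.0 and 35.2 next. Its beta subunits were sparser: Kcnmb4, the neuronal form, in 10 cells with 16.2 at most, and Kcnmb2 in 8 with 46.1 at most. Kcnma1 and Kcnmb4 met in 5 cells, 21.7% of the Kcnma1 cells and 50.0% of the Kcnmb4 cells, where the product of their shares gives 3.90. Of the small-conductance channels that open on calcium after a spike, Kcnn2 was detected in 13 cells (highest 26.9), Kcnn3 in 7 (highest 16.9) and Kcnn1 in 6 (highest 35.4). Kcnt1, opened by sodium, was detected in 17 cells with 15.8 at most, and Kcnt2 in 1 cell. Kcnu1, a channel otherwise known from sperm, was detected in 7 cells, with 52.9, 51.2 and 40.6 at the top.

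Of the 8 Kcnh genes, which encode voltage-gated channels of the ether-a-go-go kind, 4 passed the threshold and at least 1 was detected in 27 cells. Kcnh7 was detected in 13 cells with 13.5 at most, Kcnh2 in 10 with 17.7, Kcnh1 in 8 with 89.4 in cell 32, and Kcnh5 in 6 with 8.00. Kcnh7 had an FPKM above 0 in 29 cells and lay below the threshold in 16 of them. Kcne2, an accessory subunit, was detected in 6 cells but high in them, with a median of 41.2 and 50.5 at most. Kcnq1ot1, the RNA read antisense to Kcnq1, was detected in 10 cells with 5.03 at most, and had an FPKM above 0 in 34.

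The other 32 members were detected in 1 to 5 cells, 9 of them in exactly 1. Kcne1l reached 126 FPKM in cell 43, and its median over its 5 cells was 69.6. The highest values of Kcnd1 and Kcna7, named after their values were seen, were 116 in cell 11 and 231 in cell 36. Kcna3 and Kcnn4, channels of immune cells, both had their highest value in cell 21, with 25.1 and 17.8. That cell also had the highest C1qa, C1qb, C1qc, Tyrobp and Ctss of the microglia list. Cx3cr1, P2ry12, Tmem119, Csf1r and Aif1 of that list were highest in other cells. The microglia list mean of cell 21 was 9.55, below the highest, 10.1 in cell 15. Kcna3 was detected in 4 cells, and its next value, 15.8, lay in cell 54, which ranked 45 of 59 by the microglia list. Kcnn4 was detected in 2 cells, with 1.28 in cell 50, where the microglia list mean was 9.60. Kcnj16, detected in 4 cells, was highest in cell 47, which was also the cell with the highest Aqp4. Its next value, 17.7, lay in cell 10, which ranked 15 by the astrocyte list and 7 by the oligodendrocyte list.

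By prefix, the beta subunits were detected most widely and the inward rectifiers and leak channels least. The median share of cells over members was 40.7% for Kcnab, 27.1% for Kcnq, 25.4% for Kcnc, 22.0% for Kcnb, 16.9% for Kcna, 13.6% for Kcnd, 6.78% for Kcnj, 5.08% for Kcnk and 11.0% for the others, against 11.9% over all genes. Within the others, the Kcnip genes had a median of 33.9%. A prefix with a low median could still reach many cells: at least 1 Kcna gene was detected in 53 cells, a Kcnq gene in 42, a Kcnj, a Kcnk or a Kcnab gene in 39 each, a Kcnc gene in 35, a Kcnd gene in 34 and a Kcnb gene in 21.

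Lists by function differed as well. Genes of fast-spiking neurons (such as Kcnc1, Kcnc2, Kcna1, Kcna2 and Kcnab2) and of the M-current (a list that includes Ank3, in 69.5% of cells) each had a median of 42.4%, A-type current genes 22.0%, calcium-activated channel genes 11.9% and channels opened by G proteins 11.0%. Within the fast-spiking list, the Kcnc genes alone had a median of 25.4%, while Kcna1, Kcna2 and Kcnab2 were in 67.8, 45.8 and 44.1% of cells. Of the partners that are not named Kcn, 15 were analysed here with a median of 35.6%, and 2 of them, Ank3 in 41 cells and Cntn2, a myelin and axon adhesion protein that clusters Kcna channels, in 30, were in at least 30 cells. Cntn2 was found in 22 of the 40 Kcna1 cells, and its highest cell, 4 with 164 FPKM, ranked 1 of 59 by the oligodendrocyte list. The HCN channels, pacemaker channels related to Kcn genes, reached 19 cells for Hcn2 and 7 for Hcn3. Of the ATP-sensitive channels, Kcnj11 was detected in 4 cells and its partner Abcc8 in 5, with 1 cell in common. Kcnj8, Abcc9 and Hcn4 were not analysed here.

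The number of members per cell ran from 0 to 43, with quartiles of 6 and 20 and a median of 13. Cell 8 had 43 members and the most genes of all (10310), while cell 62 had none with 1074 genes detected. At least 10 members were detected in 36 cells, at least 20 in 17 and at most 5 in 13. Summed FPKM of the members had a median of 248 per cell and was highest in cell 12 with 1199, which was also the cell with the highest neuronal list mean. The members were 0.325% of the genes detected in the median cell, with a highest share of 0.809%. Cell 4, with the highest oligodendrocyte list mean, held only 1 detected member, Kcna1 at 50.7 FPKM.

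The number of members detected rose with the neuronal list over the 59 cells (Spearman rho 0.826, Pearson r 0.778, r 0.767 without the 2 cells farthest from the median), and with the number of genes detected (rho 0.819, r 0.846). The points share library, depth and the cells' mixture of markers, so these are descriptions without p-values. With the number of genes detected held fixed as a partial rank correlation, the relation with the neuronal list was 0.826, with the interneuron list 0.668 and with the striatal projection neuron list 0.607. With the oligodendrocyte list it was 0.00553 before and -0.353 after genes detected were held fixed. Channel genes were thus most numerous in cells with strong neuronal markers, with or without myelin markers: cell 58, with 38 members, ranked 12 of 59 by the oligodendrocyte list, and cell 12, with 30, ranked 51.

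**Figure D3:**
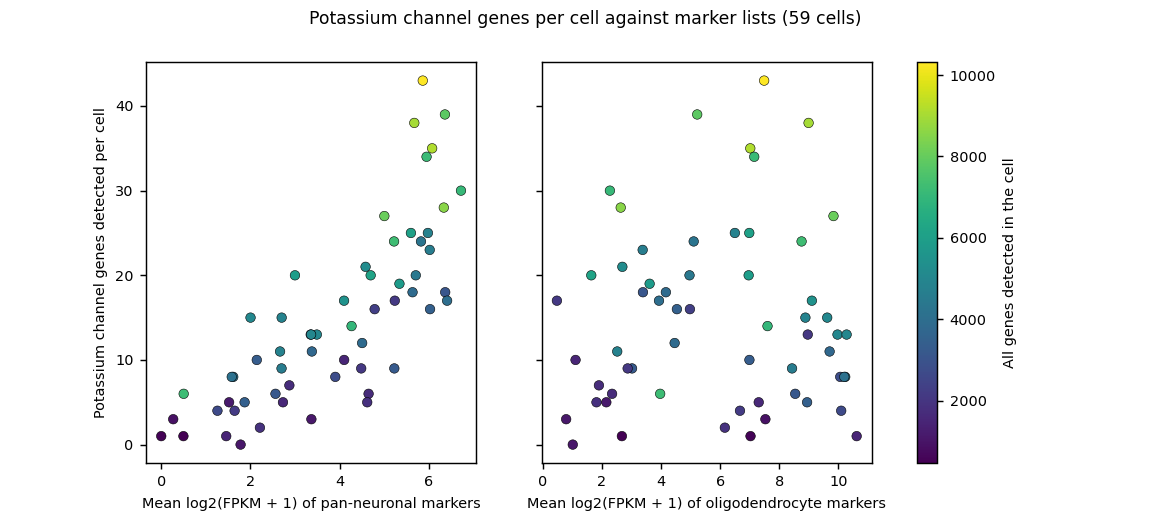
Number of the 81 potassium channel genes detected in each of the 59 cells (vertical axis) against the mean log2(FPKM + 1) of the pan-neuronal list (left) and of the oligodendrocyte list (right), coloured by the number of all genes detected. The count climbs with the neuronal list (rho 0.826) and shows no trend with the oligodendrocyte list (rho 0.00553).

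For the 31 members in at least 12 cells, the partial correlation with the neuronal list had a median of 0.325 and was above 0 in 29 (93.5%), against a median of 0.0483 and 57.8% of the 8042 genes detected in at least 12 cells. With the oligodendrocyte list the median was -0.143 and 8 (25.8%) were above 0, against -0.0293 and 44.0%. The highest with the neuronal list was Kcnc1 (rho 0.771, r 0.694, partial 0.675), and Kcna2 (rho 0.633, partial 0.568), Kcnk1 (rho 0.645, partial 0.481) and Kcnd2 (rho 0.563, partial 0.501) also followed it. With the interneuron list, Kcnk1 had a rho of 0.692 (partial 0.551) and Kcnc2 of 0.641 (partial 0.511). Kcnc2 had nearly the same values with the neuronal list (rho 0.644, partial 0.514). Gad1 and Gad2, in 46 and 45 cells, were the most widely detected genes of the interneuron list. With the striatal projection neuron list, Kcnk2 had a rho of 0.664 (partial 0.581), Kcnq5 of 0.625 (partial 0.605) and Kcnip2 of 0.579 (partial 0.506). The 3 highest Kcnk1 cells, 7, 13 and 12, ranked 8, 5 and 1 of 59 by the neuronal list.

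**Figure D4:**
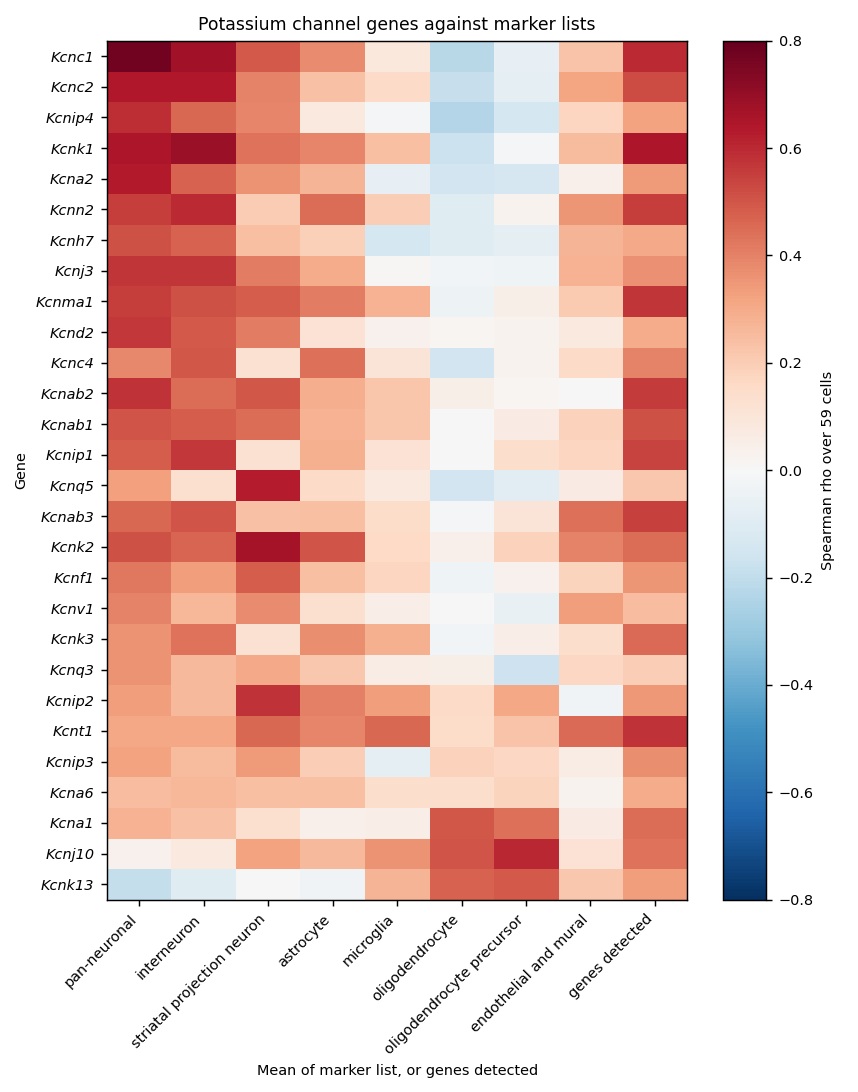
Spearman rho over 59 cells between the level of potassium channel genes in at least 12 cells (rows) and the mean of 8 marker lists or the number of genes detected (columns), red for positive and blue for negative values. Most rows are red for the neuronal lists and pale for the oligodendrocyte list. The 3 bottom rows, Kcna1, Kcnj10 and Kcnk13, are reddest for the oligodendrocyte list or the oligodendrocyte precursor list.

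Kcna1, Kcnj10 and Kcnk13 followed the oligodendrocyte list more than the neuronal list. With the oligodendrocyte list, Kcnj10 had a rho of 0.502 (r 0.426, partial 0.453), Kcna1 of 0.498 (r 0.499, partial 0.448) and Kcnk13 of 0.473 (r 0.497, partial 0.427), while Kcnc1 had -0.222 (partial -0.475). With the neuronal list, Kcnj10 had a rho of 0.0366 (partial -0.239), Kcna1 of 0.279 (partial 0.0644) and Kcnk13 of -0.189 (partial -0.447). For Kcnj10 the oligodendrocyte precursor list gave a rho of 0.603 (partial 0.504). In that list Pdgfra, Cspg4 and Gpr17 were detected in only 4, 4 and 2 cells. Its mean rested mostly on Olig1, Sox10 and Olig2, in 42, 28 and 15 cells, so it does not single out precursor cells. The astrocyte list gave Kcnj10 a rho of 0.258 (partial 0.0669). In the 46 cells with at least 2000 genes, the rho of Kcnj10 with the astrocyte list was 0.0532. For Kcnk13 the microglia list gave a rho of 0.274 (partial 0.138), which was 0.136 in those 46 cells, and the rho of Kcna1 with the oligodendrocyte list was 0.370 there. The 12 cells with both Kcnj10 and Kcnk13 all had Kcna1 too. Kcna1 was high at both ends: cells 57, 40 and 4, of its 5 highest, ranked 4, 5 and 1 by the oligodendrocyte list and 52, 55 and 54 by the neuronal list, while cells 7 and 42 ranked 8 and 2 by the neuronal list. Kcna1 was found with Mbp in 38 of its 40 cells. Myelin markers therefore moved with these 3 channels over cells, and whether the channel RNA came from the recorded cell or from other cells was not tested.

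**Figure D5:**
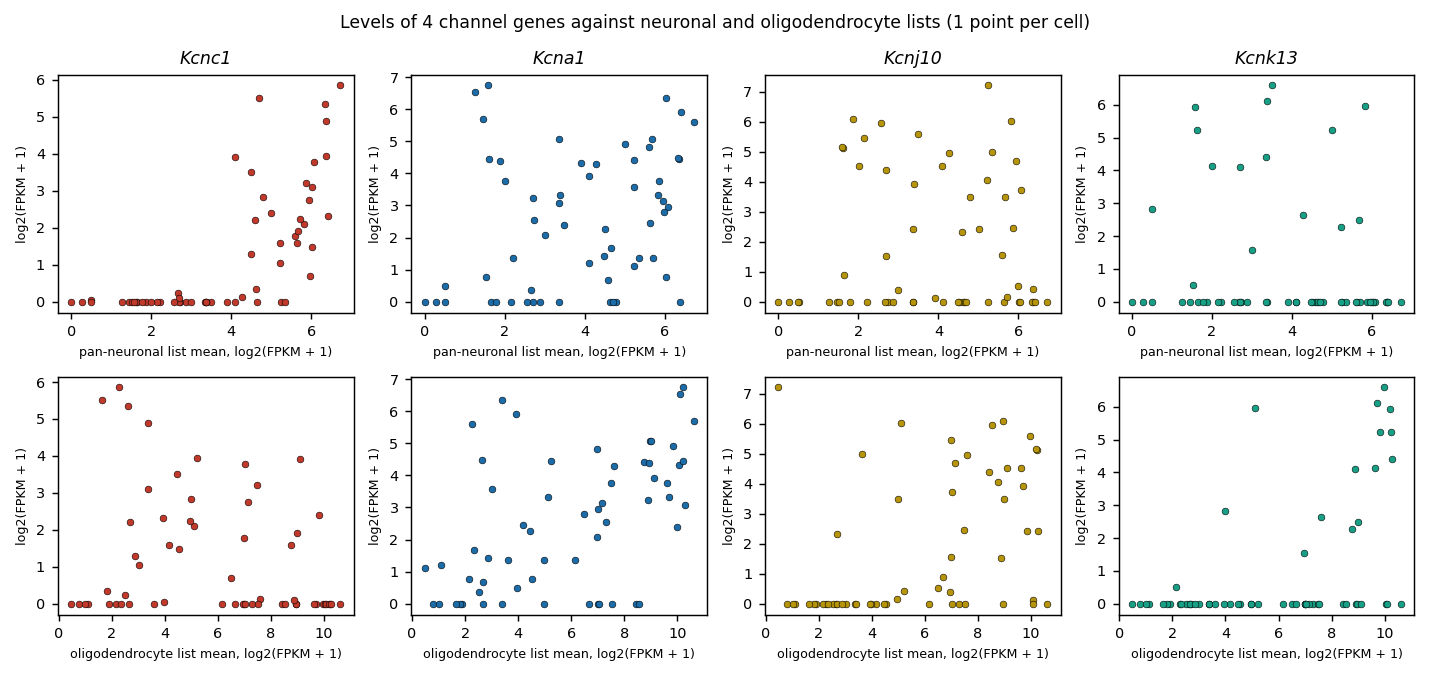
Level of Kcnc1, Kcna1, Kcnj10 and Kcnk13 in each of the 59 cells, as log2(FPKM + 1) on the vertical axis, against the mean of the pan-neuronal list (top) and of the oligodendrocyte list (bottom), with 1 point per cell. Kcnc1 climbs with the neuronal list (rho 0.771), Kcna1, Kcnj10 and Kcnk13 with the oligodendrocyte list (rho 0.498, 0.502 and 0.473), and the highest Kcnj10 point lies at the lowest oligodendrocyte value.

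Between members, levels mostly moved weakly together. Over the 465 pairs of the 31 members the median rho was 0.269, with 435 above 0, and the median fell to 0.107 with genes detected held fixed. Among the highest partial values were those of Kcnk3 with Kcnc4 (0.485, rho 0.577), Kcnk1 with Kcnn2 (0.474) and Kcnq3 with Kcnab2 (0.464). The lowest were Kcnc1 with Kcnk13 (-0.487, rho -0.166) and Kcnc1 with Kcnj10 (-0.473, rho -0.0819), where the rho without genes detected held fixed was much closer to 0.

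For the 3 members detected in most cells (Kcnd2 taken before Kcnk1, which tied with it, by alphabet), the genes outside the family with the most similar pattern were sought by Spearman rho over 59 cells among genes in at least 12 cells. For Kcna1 they were Sorl1 (0.707), Fam21 (0.630) and Paqr4 (0.621). For Kcnq3 they were Akap6 (0.527), Scg5 (0.509) and Alcam (0.509), and for Kcnd2 Reep1 (0.595), Fut9 (0.578) and Grm5 (0.578). These are the highest of 8011 comparisons for each member.

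Spread over cells was measured as the SD of log2(FPKM + 1) minus the running median over genes of similar mean level. Of the 31 members, 13 lay above that trend and the median difference was -0.02 on the log2 scale, close to 0, the value of a gene on the trend. Kcnip4 (0.35), Kcnip2 (0.33), Kcnip1 (0.30), Kcnab3 (0.28), Kcnk13 (0.27) and Kcnk1 (0.25) varied most for their level. Kcnq3 (-0.55), Kcna1 (-0.45) and Kcna2 (-0.44) varied least. The upper end thus held 3 accessory Kcnip genes, and the lower end 3 channel genes known from axons. The trend takes account of mean level only, not of exon length. Exon length ran from 2235 (Kcnk1) to 6200 bases (Kcnip1) for the genes that varied most. It was 4780 (Kcna1), 11906 (Kcna2) and 14708 bases (Kcnq3) for those that varied least. The part of exon length in the spread was not tested.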

How the data were processed

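RNA of 59 single cells was sequenced, and the deposited table gives 20740 features, of which 51 are spike-in RNAs. Values are FPKM made by the authors with STAR 2.5.3a and featureCounts 1.5.3 on GRCm38, per the submitters' processing notes. The strand setting, the annotation release and the rule for multi-mapped fragments were not given in the sources used here, so antisense and paralogous genes could share fragments.

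FPKM values were used as deposited, with a threshold of 1 for detection and a pseudocount of 1 on the log2 scale. Depth was recovered from the steps between low values with GENCODE M21 exon lengths, which gave whole fragments (within 0.02) for a median of 73.3% of low values per cell. For members such as Kcna1, Kcnq3, Kcnk1, Kcnc1 and Kcnma1 these lengths gave no whole fragments, so their fragment numbers are approximate. In 31 cells 1 fragment on 1 kb already exceeds the threshold. The computation used Python 3.11.15, pandas 2.3.3, numpy 2.4.6 and scipy 1.17.1 and was tested on simulated data. The simulation used the same exon lengths, so it could not test lengths that differ from the authors' annotation. Genes were named by symbol; members in at least 6 cells were described and those in 5 cells named, and of the rest some are named for a list, a pair or a value seen in the data; a few members are not reported here by name but enter all counts. Members, lists and pairs were chosen with earlier results of these data known. Coding sequences round the filter were compared as bases, a choice made after the files were seen. Identical stretches were sought over whole transcripts.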

Additional observations from a re-analysis of the deposited data

How the results depend on the processing

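Detection shares, 19 joint detections, 14 correlations with marker lists and the number of members above the spread trend were recomputed under other thresholds, scalings, pseudocounts and cell filters. Other results, such as pairs of members, nearest genes and highest members, were not. Of 649 values for 95 results, 579 stayed within a set bound and 70 moved. Of 84 correlation values 15 moved and 0 changed sign, and of 133 values of joint detections 12 moved. For a share of cells the bound was its interval, and for a correlation 1 standard error (0.134 on the Fisher z scale). For members per cell it was the SD over cells. Counts of members had a fixed ratio as bound, wide enough that the fall from 49 to 34 at an FPKM of 5 stayed within it. The 49 members past the threshold became 54 with any FPKM above 0, 34 at an FPKM of 5, 52 after rescaling each cell to 1000000 with or without mitochondrial genes, 48 in the 46 cells with at least 2000 genes, 43 with at least 10 fragments and 45 in the 39 cells with at least 500000 fragments. With any FPKM above 0, the median share of cells moved to 36.4% for Kcnb, 40.7% for Kcnc and 28.8% for Kcnd, and at an FPKM of 5 to 10.2% for Kcnb, 5.08% for Kcnd and 11.0% for Kcnq, as a looser or stricter threshold does by construction. Of single members, 12 rose beyond their interval with any FPKM above 0 and 22 fell at an FPKM of 5. The correlation of members detected with the neuronal list ran from 0.779 to 0.850. In cells with at least 2000 genes, Kcna1 had a rho of 0.370 with the oligodendrocyte list and Kcnj10 of 0.0532 with the astrocyte list. Detection in shallow cells is limited by depth, so an undetected member is not shown to be absent. No paired analysis was possible because the cells form a single group.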
